A study of Mus musculus with 22 samples.

Results

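The genes of glycolysis, lactate handling and glycogen metabolism were followed in the hypothalamus of FGF1-injected and control mice. The group holds 33 of the 15712 genes listed in both the nuclei and the whole-cell count tables. They were chosen by symbol from the textbook pathway, with earlier results of these data known. By step, 4 of them act in glucose entry and phosphorylation, 7 in upper glycolysis, 6 in lower glycolysis, 5 in lactate handling, 4 in the pyruvate dehydrogenase switch and 7 in glycogen metabolism. All mice were male ob/ob mice, which lack leptin and are obese and diabetic, at 11 weeks of age, and each sample was the hypothalamus of 1 mouse. Each received a single intracerebroventricular (icv) injection of 3 µg fibroblast growth factor 1 (FGF1) or of vehicle (PBS), and the vehicle group was held to the food intake of the FGF1 group by pair-feeding (PF). Single nuclei were counted from 3 FGF1 and 3 vehicle mice on Day 1 and from 2 FGF1 and 2 vehicle mice on Day 5. Whole cells, from which the authors had removed neurons, came from 12 other mice (6 per group), also on Day 5.

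Glycolysis splits glucose into pyruvate in the cytosol, and pyruvate is then either reduced to lactate or passed to mitochondria through the pyruvate dehydrogenase complex. In the brain, astrocytes are the main store of glycogen, and they can release lactate that neurons and oligodendrocytes take up through monocarboxylate transporters. Tanycytes, the elongated glia that line the floor of the third ventricle, take up glucose from cerebrospinal fluid and blood and are also known to release lactate. Several glycolytic steps are catalysed by enzymes encoded by paired genes that differ between cell types, such as aldolase A and C or lactate dehydrogenase A and B.

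The whole-cell libraries held 2652897 to 11866269 unique molecular identifiers (UMIs) and the nuclei libraries 2721087 to 16345981. Both tables together listed 24965 nuclei and 54890 cells. A barcode sequence that also occurred in another library was carried by 2.556% of nuclei and 6.588% of cells. In Day 1 nuclei the median UMI number per nucleus was 2029 to 2816 in FGF1 libraries and 3178.5 to 3776 in vehicle libraries, without overlap. Levels are CPM (counts of a gene scaled to a common total over a mouse's summed cells of one type), given as mean ± SD over mice. Levels compared between cell types in vehicle mice are plain CPM over all genes. Levels compared between FGF1 and vehicle are CPM over the genes tested, scaled by the trimmed mean of M values (TMM), so the same vehicle group can have a slightly different level in each. FGF1 was compared with vehicle by edgeR's quasi-likelihood test on counts summed per mouse, and a gene was called at a Benjamini-Hochberg false discovery rate (FDR) below 0.05 over all genes tested in that comparison. Log2 values are FGF1 over vehicle with their standard error (SE). Whole-cell clusters carry numbers in the deposited annotation and were named from marker genes: clusters 0, 7 and 10 were tanycyte-like, clusters 1 and 4 astrocyte-like, cluster 3 endothelial-like, cluster 5 oligodendrocyte precursor (OPC)-like, cluster 6 ependymal-like, clusters 2, 11 and 12 oligodendrocyte-like and cluster 8 microglia-like. The endothelial-like cluster 3 also carried all 5 pericyte markers. Nuclei kept the authors' cell types. Astro, Tany and Epend nuclei carried all 5 markers of their own class, but Tany and Epend nuclei also carried all 5 astrocyte markers.

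The upstream sequences of 4 members that turn up in the results are shown to place the hypoxia response motif, since several glycolytic genes are textbook targets of hypoxia-inducible factor. They are RefSeq sequences of GRCm38.p6, read on each gene's own strand and ending before the annotated gene start: chr2:150786546-150786734 (+) for Pygb, chr3:104638414-104638663 (+) for Slc16a1, chr11:21371268-21371517 (-) for Ugp2 and chr4:150236458-150236707 (+) for Eno1. Capitals mark ACGTG or GCGTG on either strand, where neighbouring matches may overlap and CACGTG counts on both strands.
Pygb: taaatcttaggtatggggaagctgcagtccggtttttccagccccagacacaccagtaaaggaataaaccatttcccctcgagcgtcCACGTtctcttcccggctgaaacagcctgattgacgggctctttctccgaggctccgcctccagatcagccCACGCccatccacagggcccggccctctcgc
Slc16a1: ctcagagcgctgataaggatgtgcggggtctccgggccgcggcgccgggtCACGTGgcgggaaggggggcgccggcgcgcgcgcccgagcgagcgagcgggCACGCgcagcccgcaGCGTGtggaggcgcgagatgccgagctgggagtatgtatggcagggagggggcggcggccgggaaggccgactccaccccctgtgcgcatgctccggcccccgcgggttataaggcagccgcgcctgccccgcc
Ugp2: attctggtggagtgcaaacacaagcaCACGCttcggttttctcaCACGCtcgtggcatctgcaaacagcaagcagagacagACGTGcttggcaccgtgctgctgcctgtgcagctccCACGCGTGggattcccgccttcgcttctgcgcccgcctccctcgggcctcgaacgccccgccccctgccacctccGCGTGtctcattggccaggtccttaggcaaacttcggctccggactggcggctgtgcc
Eno1: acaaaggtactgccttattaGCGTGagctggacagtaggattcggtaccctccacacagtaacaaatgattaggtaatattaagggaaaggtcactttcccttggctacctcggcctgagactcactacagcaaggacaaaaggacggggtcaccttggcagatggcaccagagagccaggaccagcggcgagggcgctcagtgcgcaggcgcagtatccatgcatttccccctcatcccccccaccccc
Within the 250 bases before the start, ACGTG was found in 14 of the 31 members with a promoter entry (45.2%) and in 4467 of 27025 genes (16.5%). GCGTG was found in 17 of the 31 members (54.8%) and in 28.3% of all genes. These matches are letters in a window and were not measured as binding in these mice. In the GENCODE vM21 annotation of GRCm38, Pygb (brain glycogen phosphorylase) lies at chr2:150786735-150831758, Slc16a1 (the lactate and pyruvate carrier MCT1) at chr3:104638668-104658462, Ugp2 (UDP-glucose pyrophosphorylase) at chr11:21321138-21371201 and Eno1 (enolase 1) at chr4:150236721-150248879. The members spanned 3711 to 255768 bp, and 12 of the 33 overlapped a gene on the opposite strand. Annotated near-identical copies held few UMIs in the whole-cell table, at 2.28% of the count of Pgk1 for Pgk1-rs7, 1.97% of that of Eno1 for Eno1b and 0.0208% of that of Aldoa for Aldoart1. Whether reads shared by a member and its copy went uncounted, which would lower both, was not tested. No other copies were checked.

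In vehicle cells on Day 5, the members differed widely between cell types on the plain CPM scale. Aldoc (aldolase C, the brain aldolase) had the highest mean level of all members in both astrocyte-like clusters, at 2980 ± 280 CPM in cluster 4 and 2540 ± 435 CPM in cluster 1 (n = 6), and reached 365 ± 113 CPM in the cluster where it was lowest. Clusters 4 and 1 came from the same mice, and their difference in Aldoc was not tested. Gapdh (glyceraldehyde phosphate dehydrogenase) was also highest in these clusters, in the opposite order, with 1250 ± 118 CPM in cluster 1 and 1030 ± 95.2 CPM in cluster 4. Ldhb, the lactate dehydrogenase subunit that favours pyruvate, was also highest in cluster 1, at 853 ± 169 CPM. Ldha, the subunit that favours lactate, was highest in the tanycyte-like cluster 7, at 334 ± 103 CPM, followed by cluster 19 (272 ± 17.3, n = 2 mice), cluster 0 (236 ± 51.5) and endothelial-like cluster 3 (234 ± 48.6), whose ranges overlapped. Ldha made up 9.91% of the pooled Ldha and Ldhb counts in cluster 1, 32.1% in cluster 0 and 46.0% in cluster 3. Whole-cell libraries tag the 3′ end of each transcript, so counts per gene are not divided by length. Aldoc and Gapdh were among the 4 highest members in each of these clusters.

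**Figure D1:**
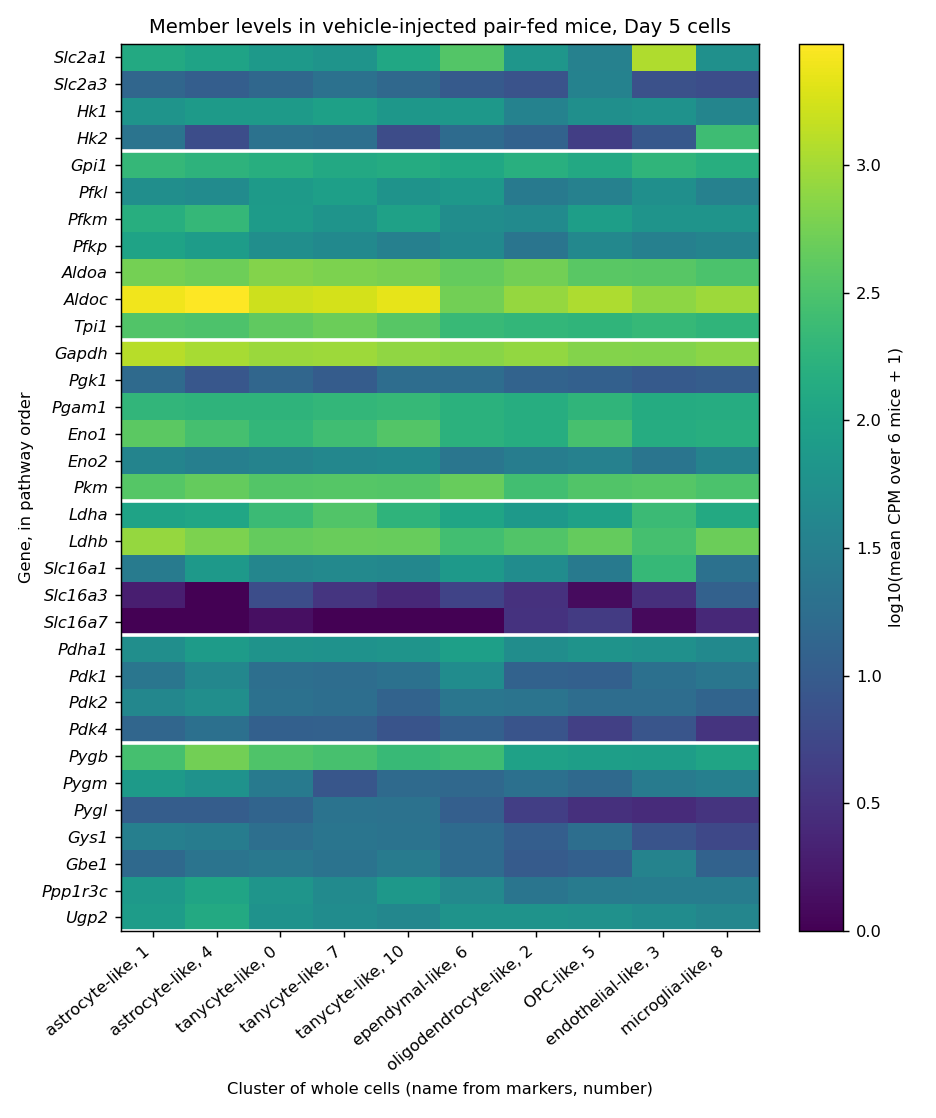
Heat map of the vehicle level of each of the 33 members (rows) in 10 whole-cell clusters on Day 5 (columns), as log10 of the mean plain CPM plus 1 over vehicle mice, with lighter colours for higher levels. Aldoc and Gapdh are the brightest rows, Slc2a1 and Slc16a1 stand out in endothelial-like cluster 3, Hk2 in microglia-like cluster 8, and Slc16a3 and Slc16a7 are the darkest rows.

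Transporters and glycogen genes had their own distribution. Slc2a1 (the glucose transporter GLUT1 of the blood-brain barrier) reached 1140 ± 117 CPM in endothelial-like cluster 3 and 351 ± 69.5 CPM in ependymal-like cluster 6. Slc16a1 was also highest in cluster 3, at 210 ± 66.9 CPM. Slc2a3, the glucose transporter best known from neurons, was low in each cluster and highest in OPC-like cluster 5 (33.8 ± 11.4 CPM), where it made up 49.3% of the counts of both glucose transporters. Hk2 (hexokinase 2) reached 249 ± 84.0 CPM in microglia-like cluster 8, where it was 86.9% of the pooled hexokinase counts. In clusters 0 to 6, that share was 5.26% to 21.2%. Pygb was highest in astrocyte-like cluster 4 (534 ± 76.4 CPM), followed by tanycyte-like cluster 0 (332 ± 31.4) and cluster 7 (294 ± 79.9), and by astrocyte-like cluster 1 (283 ± 21.5). It made up 89.4% of phosphorylase counts in cluster 0 and 76.2% in cluster 1, where Pygm (muscle glycogen phosphorylase) held 21.4%. Ppp1r3c, which targets protein phosphatase 1 to glycogen, was highest in cluster 4 (106 ± 22.9 CPM), as was Ugp2 (126 ± 48.3), which makes the glucose donor of glycogen. Slc16a3 and Slc16a7, the other two monocarboxylate transporters of the group, stayed at or below 17.6 and 4.87 CPM in clusters with at least 4 vehicle mice. The other members were low to moderate in those clusters. Pfkm reached 203 ± 41.4 CPM in cluster 4 and Pfkp 104 ± 38.4 CPM in cluster 1, both astrocyte-like, whereas Pfkl (the liver type of phosphofructokinase) reached 89.6 ± 41.0 CPM in tanycyte-like cluster 7. The kinases that switch off pyruvate dehydrogenase stayed low, with highest means of 47.7 CPM for Pdk1 in cluster 6, 60.9 for Pdk2 in cluster 9 and 18.3 for Pdk4 in cluster 4. Pkm and Pdha1 (the pyruvate dehydrogenase subunit that these kinases act on) were highest in ependymal-like cluster 6, at 470 ± 50.7 and 89.1 ± 9.52 CPM. Pgk1 (phosphoglycerate kinase) was at most 31.0 CPM, and Pygl (liver glycogen phosphorylase), Gys1 and Gbe1 were at most 19.9, 30.6 and 34.4 CPM.

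On Day 5, each of 16 whole-cell clusters was tested on its own, and 5 of 265 member tests were called (1.89%), against 1.75% of all gene tests. Slc16a3 and Slc16a7 passed the filter on low counts in none of them. In tanycyte-like cluster 0, 31 members were tested and 1 was called, where 5.27% of all genes were called. This was Pgam1 (phosphoglycerate mutase), whose FGF1 mice ranged from 210 to 246 CPM (median 234) and vehicle mice from 150 to 226 CPM (median 174). The means were 233 ± 12.8 against 181 ± 31.6 CPM (n = 6 per group), with log2 0.38, SE 0.115 and FDR 0.0474, and the FGF1 mouse was the higher one in 6 of 6 batches. The call was lost (FDR 0.052) with DESeq2's size factor scaling and when any 1 of 10 of the 12 mice was left out (FDR 0.0539 to 0.16). In the same cluster, Tpi1 (triosephosphate isomerase) separated the groups, at 474 to 584 CPM with FGF1 and 389 to 464 CPM with vehicle, and missed the threshold (FDR 0.0614). Ldha was 309 ± 44.7 against 235 ± 46.5 CPM (FDR 0.0603) and Pfkm, the muscle type of phosphofructokinase, was 60.7 ± 9.3 against 80.4 ± 8.89 CPM (FDR 0.0575). Summed astrocyte markers in cluster 0 were 1070 to 1450 CPM with FGF1 and 1610 to 2110 CPM with vehicle, and 3 of 5 were lower with FGF1. Their part in these values was not tested.

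Outside the tanycytes, single clusters gave 4 more calls. Aldoc fell in endothelial-like cluster 3, from 684 to 943 CPM (median 784) in vehicle mice to 392 to 665 CPM (median 530) in FGF1 mice, with no overlap. Its log2 was -0.57 (SE 0.124, FDR 0.016), with 0.948% of all genes called there. The call was lost without FGF1 replicate 6 or 21 or vehicle replicate 20 or 25 (FDR 0.0502 to 0.0608). It fell likewise in ependymal-like cluster 6, from 574 ± 141 to 382 ± 61.5 CPM (log2 -0.61, SE 0.157, FDR 0.0348), where the ranges overlapped and 1.28% of all genes were called. The call in cluster 6 was lost when any 1 of 6 of the 12 mice was left out (FDR 0.083 to 0.128). Astrocytes carry far more Aldoc than either cluster, and summed astrocyte markers were 627 to 1280 against 917 to 1710 CPM in cluster 3 (1 of 5 lower) and 1150 to 1640 against 1280 to 1950 CPM in cluster 6 (0 of 5 called). The part of astrocyte RNA in these values was not tested. In OPC-like cluster 5, 2 of 17 members were called, against 2.39% of all genes. Ldha rose from 107 ± 19.7 to 182 ± 27.9 CPM (log2 0.80, SE 0.151, FDR 0.00143), with ranges that overlapped slightly. Pfkm fell from 97.0 ± 14.8 to 65.0 ± 17.9 CPM (log2 -0.65, SE 0.188, FDR 0.0499), a call that was lost with DESeq2 (FDR 0.0769), with its size factor scaling (FDR 0.0507) and when any 1 of 9 of the 12 mice was left out.

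No member was called by edgeR in astrocyte-like cluster 1 or oligodendrocyte-like cluster 2, where 0.404% and 0.904% of all genes were called. In cluster 1, 5 of 27 members had an unadjusted p below 0.05, and DESeq2 called 0. The lowest FDR was that of Gapdh, at 739 to 1380 CPM with FGF1 and 1260 to 1550 CPM with vehicle (log2 -0.36, SE 0.13, FDR 0.274). In cluster 2, 5 of 22 members had an unadjusted p below 0.05, and DESeq2 called 1. Gapdh again had the lowest FDR, and its groups did not overlap, at 417 to 681 CPM with FGF1 and 711 to 995 CPM with vehicle (log2 -0.46, SE 0.122, FDR 0.0579). That value passed the threshold with DESeq2 (FDR 0.0286), with no filter on low counts (FDR 0.019) and without vehicle replicate 22 (FDR 0.043) or 35 (FDR 0.0381). Ependymal-like cluster 6 showed Slc2a1 at 213 TMM-scaled CPM with FGF1 and 372 with vehicle, with no overlap between groups and FDR 0.0811.

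When the astrocyte-like clusters 1 and 4 were summed per mouse, 10 of 31 members were called, against 12.6% of all genes. Of these, 4 rose, where 6.55% of all genes rose, and 6 fell, where 6.06% of all genes fell. The median log2 of the 31 members was -0.07, beside -0.02 over all genes. Those that rose were 3 of 7 glycogen genes and the lactate carrier Slc16a1. Those that fell were 3 of 6 genes of lower glycolysis, 2 of 7 of upper glycolysis and the phosphorylase Pygm. No gene of glucose entry or of the pyruvate dehydrogenase switch was called (0 of 4 each).

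Pygb, which releases glucose units from brain glycogen, was 411 to 570 CPM (median 467) in FGF1 mice and 272 to 365 CPM (median 321) in vehicle mice. The groups did not overlap, and Pygb rose 1.5-fold (log2 0.58, SE 0.106, FDR 5.3e-04). Ugp2 was 118 to 181 CPM (median 128) with FGF1 and 75.3 to 98.7 CPM (median 91.7) with vehicle, again without overlap. It rose 1.51-fold (log2 0.59, SE 0.119, FDR 0.00132). Ppp1r3c, the glycogen-targeting phosphatase subunit, overlapped between groups, at 84.6 to 124 CPM against 61.5 to 87.4 CPM. It rose 1.29-fold (log2 0.36, SE 0.12, FDR 0.0437), and this call was lost in 4 of 5 alternative fits (FDR 0.0506 to 0.0652) and when any 1 of 8 of the 12 mice was left out (FDR 0.0522 to 0.119). Glycogen synthase itself (Gys1) was 31.2 ± 10.2 against 31.6 ± 5.71 CPM, and the branching enzyme Gbe1 was 16.3 ± 7.1 against 15.7 ± 4.05 CPM. The 95% intervals of their log2 differences were -0.35 to 0.36 and -0.37 to 0.58. Pygm was 56.5 ± 10.3 against 78.9 ± 13.6 CPM (log2 -0.46, SE 0.138, FDR 0.0254), so in these sums the brain and the muscle phosphorylase moved in opposite directions. In vehicle cells, plain CPM was 77.4 in cluster 1 and 58.9 in cluster 4 for Pygm, and 283 and 534 for Pygb. Within cluster 1, Pygm was 47.4 to 92.3 CPM with FGF1 and 71.4 to 103 CPM with vehicle. The part of the cluster makeup in these sums was not tested. DESeq2 put Pygm at FDR 0.0539, and its call was also lost without FGF1 replicate 6, 7 or 21 or vehicle replicate 22 or 25.

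Slc16a1, which carries lactate and pyruvate across the membrane, was 46.3 to 64.8 CPM (median 58.8) in FGF1 mice and 22.5 to 42.0 CPM (median 32.3) in vehicle mice. Every FGF1 mouse lay above every vehicle mouse, and the fold was 1.73 (log2 0.79, SE 0.15, FDR 6.94e-04). The lactate dehydrogenase genes were not called. Ldha was 101 ± 18.3 against 109 ± 33.1 CPM, with a 95% interval of the log2 difference of -0.38 to 0.26. Ldhb was 691 ± 227 against 863 ± 149 CPM, with an interval of -0.65 to 0.02.

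Among the glycolytic enzymes, Gapdh was 676 to 1080 CPM (median 872) in FGF1 mice and 1190 to 1500 CPM (median 1240) in vehicle mice. Eno1 was 227 to 323 CPM (median 281) with FGF1 and 372 to 447 CPM (median 388) with vehicle. Neither gene overlapped between groups. Gapdh fell by 0.55 on the log2 scale (SE 0.107, FDR 9.24e-04) and Eno1 by 0.52 (SE 0.104, FDR 0.00114). Gpi1 (glucose phosphate isomerase) fell from 208 ± 35.9 to 144 ± 18.2 CPM (log2 -0.52, SE 0.121, FDR 0.00426). Aldoa (aldolase A) fell from 580 ± 46.0 to 420 ± 66.8 CPM (log2 -0.46, SE 0.108, FDR 0.00501). Eno2, the enolase known from neurons, fell from 37.5 ± 11.7 to 17 ± 5.18 CPM (log2 -1.07, SE 0.223, FDR 0.00218). In each of the 10 called genes the FGF1 mouse lay on the same side of the vehicle mouse in 6 of 6 batches. For genes whose groups do not overlap, this follows from the separation and adds nothing to it. Other enzymes of the same steps were not called: Aldoc was 2740 ± 242 against 2680 ± 412 CPM, Pkm (pyruvate kinase) 380 ± 28.0 against 383 ± 26.9 CPM and Pgam1 190 ± 21.4 against 200 ± 22.0 CPM. The plot of astrocyte levels by mouse shows each of the called genes.

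**Figure D2:**
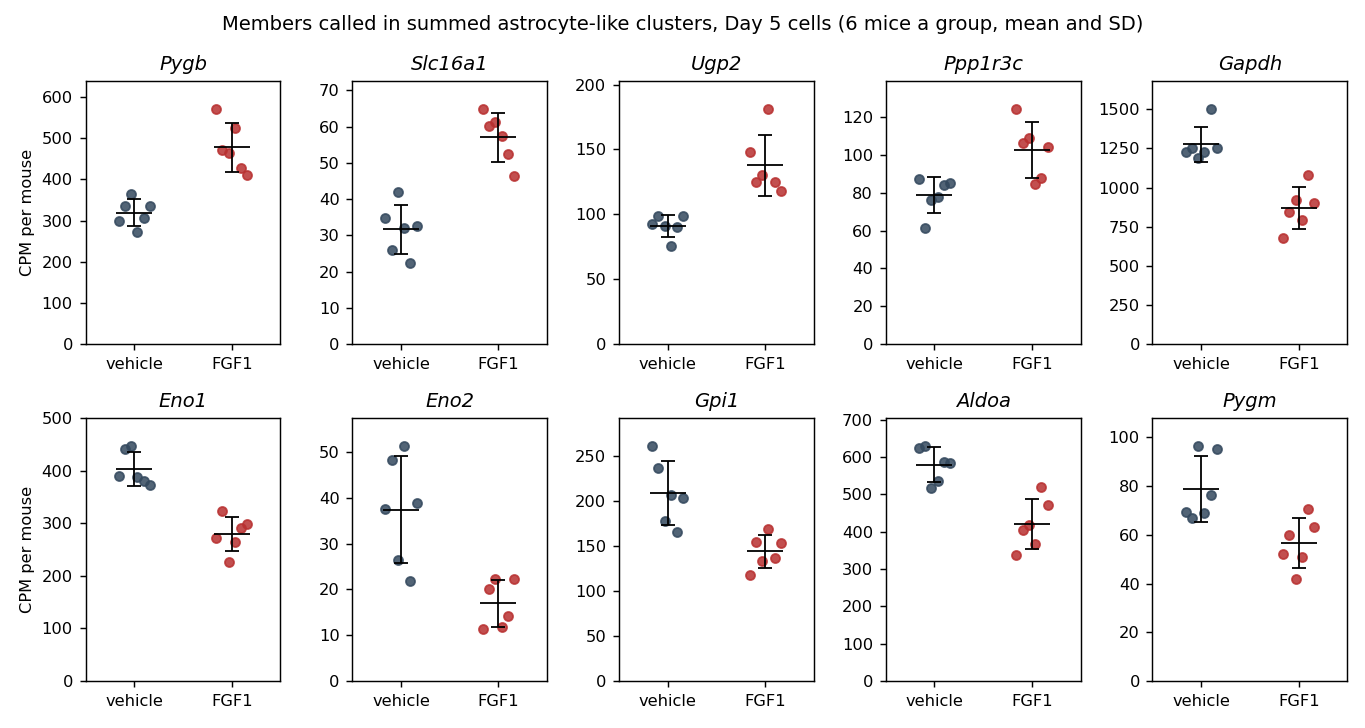
Level in CPM (vertical axes, from 0) of the 10 members called in the summed astrocyte-like clusters 1 and 4 on Day 5, 1 point per mouse for 6 vehicle and 6 FGF1 mice, with mean and SD. The groups of Pygb, Slc16a1, Ugp2, Gapdh and Eno1 do not overlap, and those of the other 5 members do.

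The makeup of the summed astrocytes differed between the groups. There were 4943 FGF1 and 8637 vehicle cells. Cluster 4 held a median of 79.4% of the cells of an FGF1 mouse (47.9% to 93.1%). It held 6.60% of those of a vehicle mouse (3.74% to 18.4%). Cluster 1 held medians of 20.6% and 93.4%. Cluster 4 was led by Gfap and Serpina3n, known from reactive astrocytes. Within cluster 4, Pygb was 517 to 639 CPM with FGF1 and 446 to 666 CPM with vehicle (log2 0.00, SE 0.127). Within cluster 1, Pygb was 284 to 382 CPM with FGF1 and 266 to 333 CPM with vehicle (log2 0.11, SE 0.132). Slc16a1 was 65.2 ± 7.87 against 77.9 ± 47.2 CPM in cluster 4 (log2 -0.28, SE 0.237) and 38.5 ± 27.1 against 29.0 ± 5.88 CPM in cluster 1 (log2 0.65, SE 0.245). Eno1 was 275 ± 28.8 against 300 ± 60.4 CPM in cluster 4 and 380 ± 75.9 against 422 ± 39.4 CPM in cluster 1. Gapdh was 906 ± 111 against 1100 ± 95.5 CPM in cluster 4 (FDR 0.431) and 1010 ± 226 against 1320 ± 111 CPM in cluster 1 (FDR 0.274). None of the 10 genes was called in either cluster alone, and each gene's levels there overlapped between groups. The clusters hold fewer cells of 1 group each (1531 FGF1 cells in cluster 1, 697 vehicle cells in cluster 4).

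**Figure D3:**
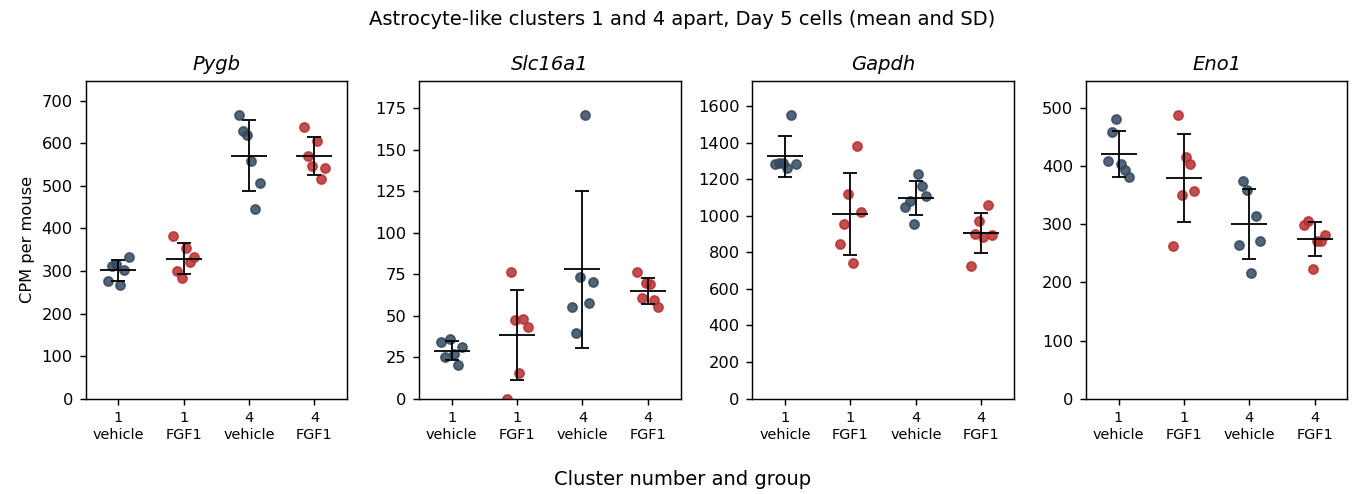
Level in CPM per mouse of Pygb, Slc16a1, Gapdh and Eno1 within astrocyte-like cluster 1 and within cluster 4, for 6 vehicle and 6 FGF1 mice each, with mean and SD. Groups overlap in each panel, and Pygb lies higher in cluster 4 than in cluster 1 in both groups.

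Markers of other cells moved in the summed astrocytes too. All 4 of the tested neuron markers were lower with FGF1, with sums of 95.8 to 196 CPM against 196 to 484 CPM. Immediate early and dissociation-induced genes were lower in 5 of 7 tested, with sums of 435 to 1400 CPM against 1470 to 3180 CPM. Such genes can change with handling. The paper lists Fos, Egr1 and Jun in a tanycyte module raised by FGF1 on Day 5, whereas the sums here were from astrocytes and lower. Whether handling or treatment moved them was not tested, here or below. The astrocyte markers summed to 7340 to 8990 CPM against 6960 to 7820 CPM, with Aqp4 higher and the other 4 not called. The part of these in the fall of Eno2 and the other members was not tested.

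In the summed tanycyte-like clusters 0, 7 and 10, 3 of 31 members were called, and all 3 fell, against 5.08% of all genes. Eno2 was 13.9 to 22.7 CPM (median 19.2) with FGF1 and 19.1 to 57.3 CPM (median 35.3) with vehicle (log2 -0.95, SE 0.21, FDR 0.0102). Pygm was 7.5 to 15.9 CPM against 12.8 to 29.2 CPM (log2 -0.89, SE 0.208, FDR 0.013). Pfkm was 49.9 to 70.0 CPM against 73.5 to 86.7 CPM, the only one of the 3 whose groups did not overlap (log2 -0.43, SE 0.115, FDR 0.0273). The Pfkm call was lost with no low-count filter (FDR 0.0542) and without FGF1 replicate 7, 10 or 36 or vehicle replicate 20, 25 or 27 (FDR 0.0523 to 0.0863). Without vehicle replicate 20 the count was 0, and without vehicle replicate 25 it was 1. Ldha was 322 ± 47.8 against 241 ± 47.3 CPM (log2 0.43, SE 0.131) and missed the threshold at FDR 0.0561. Tpi1 was 520 ± 92.9 against 422 ± 43.4 CPM (log2 0.31, SE 0.116, FDR 0.124). Pgam1 was 223 ± 27.9 against 187 ± 26.8 CPM (log2 0.27, SE 0.116, FDR 0.182). Ldha, Tpi1 and Pgam1 rose and were the only uncalled members with an unadjusted p below 0.05. Of the 31 members, 17 had a log2 above 0 and 14 below 0. In whole cells, the paper reports that FGF1 raised a tanycyte module enriched for glycolysis along part of the ventricle. That module was not tested here. The 4 members that rose in the summed astrocytes, though in neither of their clusters alone, were not called in the summed tanycytes. Pygb was 292 ± 22.3 against 305 ± 31.0 CPM and Ugp2 54.1 ± 6.01 against 55.4 ± 8.07 CPM. Slc16a1 was 44.2 ± 5.92 against 37.8 ± 6.39 CPM and Ppp1r3c 59.9 ± 19.3 against 62.8 ± 13.7 CPM. In that order, the 95% intervals of the log2 were -0.26 to 0.14, -0.29 to 0.20, -0.06 to 0.48 and -0.45 to 0.21. Summed astrocyte markers in these tanycytes were 862 to 1250 CPM with FGF1 and 1150 to 1860 CPM with vehicle (3 of 5 lower), and their part was not tested. Clusters 0, 7 and 10 held medians of 62.1%, 22.7% and 7.34% of the cells of an FGF1 mouse. For a vehicle mouse the medians were 80.7%, 10.7% and 11.0%.

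Whether the FGF1 effect differed between astrocytes and tanycytes was tested as the difference of their log2 values, with the mouse as a block because both cell types came from the same mice. This difference was called for 13 of 32 members (40.6%), against 14.1% of all genes. The share rests on members and summed classes chosen with results of these data known. The difference was positive, so higher in astrocytes, for Pfkm (0.66), Pygb (0.63, SE 0.115, FDR 4.51e-05), Ugp2 (0.62), Slc16a1 (0.61) and Ppp1r3c (0.49). It was negative for Eno1 (-0.72, SE 0.116, FDR 4.18e-06), Gpi1 (-0.58), Gapdh (-0.57), Aldoa (-0.55), Ldha (-0.51), Tpi1 (-0.45), Ldhb (-0.41) and Pgam1 (-0.38). When 1 of the 12 mice was left out, the call was lost for Pgam1 with any 1 of 6 mice (FDR 0.0594 to 0.106), for Ppp1r3c with any 1 of 4 (FDR 0.0515 to 0.0909), for Ldhb without FGF1 replicate 7 (FDR 0.0525) and for Slc16a1 without vehicle replicate 20 (FDR 0.0508). By step, the 3 glycogen genes called were higher in astrocytes and the 3 of lower glycolysis (Gapdh, Eno1, Pgam1) lower, while upper glycolysis was split, with Pfkm higher and Gpi1, Aldoa and Tpi1 lower. The difference was not called for Aldoc (0.01, 95% interval -0.25 to 0.27), Pkm (0.13, interval -0.08 to 0.34) or Slc2a1 (0.12, interval -0.15 to 0.39). Between cluster 1 and cluster 0 alone it was called for 3 of 31 members, against 2.41% of all genes: Pgam1 (-0.64), Ldha (-0.58) and Gapdh (-0.44). Of these, only Pgam1 was called with DESeq2's size factor scaling. Gapdh (FDR 0.14 with that scaling) also lost its call on cells within the study's limits for mitochondrial and ribosomal UMIs (FDR 0.057) and when any 1 of 7 of the 12 mice was left out (FDR 0.0528 to 0.13), and Ldha (FDR 0.0574 with that scaling) when any 1 of 6 was left out (FDR 0.0564 to 0.113). For Pygb, Ugp2, Slc16a1 and Eno1 the cluster 1 minus cluster 0 difference was 0.09 (FDR 0.88), 0.35 (FDR 0.475), 0.51 (FDR 0.416) and -0.19 (FDR 0.636), beside the larger values in the sums, whose cluster makeup differed between FGF1 and vehicle mice in both classes. The part of that makeup in the 13 differences was not tested.

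**Figure D4:**
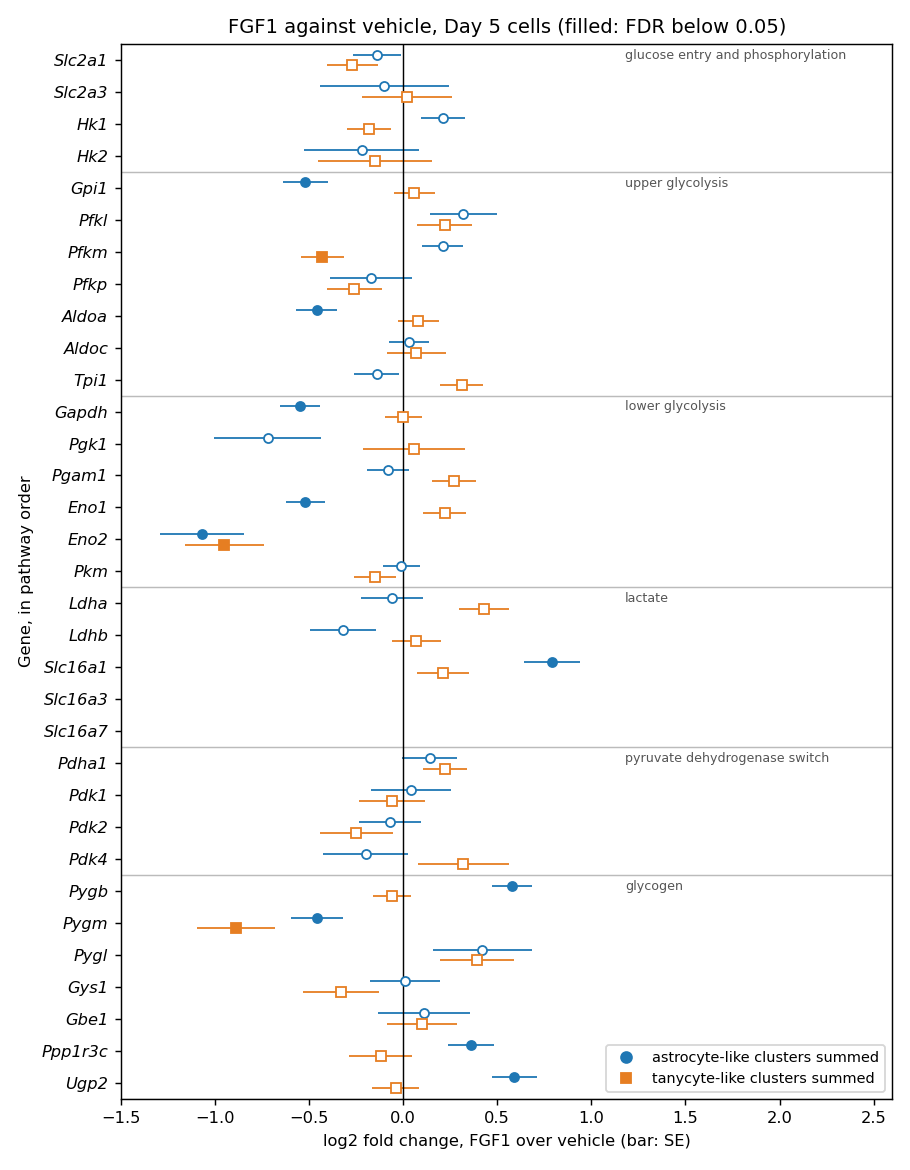
Log2 FGF1 over vehicle ± SE of each tested member in the summed astrocyte-like and summed tanycyte-like clusters on Day 5, with filled symbols for FDR below 0.05. Pygb, Ugp2 and Slc16a1 lie above 0 in astrocytes and between -0.06 and 0.21 in tanycytes, and Gapdh and Eno1 lie at -0.55 and -0.52 in astrocytes and at 0.00 and 0.22 in tanycytes.

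Summed oligodendrocyte-like clusters 2, 11 and 12 gave 4 calls among 26 members, all lower, against 2.25% of all genes, and 22 of the 26 had a log2 below 0 (median -0.35, beside 0.00 over all genes). Pygm fell from 11.3 to 31.2 CPM in vehicle mice to 1.66 to 8.56 CPM in FGF1 mice, with no overlap (log2 -1.65, SE 0.318, FDR 0.00663). The counts behind it were small, at 1 to 10 UMIs per FGF1 mouse and 4 to 71 per vehicle mouse. Aldoc fell from 795 ± 88.3 to 537 ± 122 CPM (FDR 0.0188), Gapdh from 827 ± 102 to 604 ± 73.0 CPM (FDR 0.034) and Eno2 from 28.8 ± 7.87 to 15.9 ± 5.21 CPM (FDR 0.0398). The Gapdh call was lost with no low-count filter (FDR 0.0504) and when any 1 of 7 of the 12 mice was left out (FDR 0.0572 to 0.108), the Eno2 call with DESeq2 (FDR 0.053) and when any 1 of 8 was left out (FDR 0.0544 to 0.152), and the Aldoc call without FGF1 replicate 7, 10 or 21 or vehicle replicate 25 (FDR 0.0538 to 0.0689). The count ranged from 1 (without FGF1 replicate 7 or vehicle replicate 25) to 8 (without vehicle replicate 35) and was 7 without FGF1 replicate 28. Cluster 11 held a median of 35.6% of the cells of an FGF1 mouse and 2.46% of those of a vehicle mouse. The oligodendrocyte markers summed to 38800 to 62000 CPM against 27600 to 37200 CPM (3 higher), neuron markers to 66.9 to 207 CPM against 202 to 357 CPM and astrocyte markers to 531 to 1110 CPM against 861 to 1650 CPM. Their part in the 4 calls was not tested.

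In the summed OPC-like clusters 5 and 17, 2 of 17 members were called, against 3.24% of all genes, the same genes as in cluster 5 alone, whose cells make up most of the sum. Ldha, which converts pyruvate to lactate, was 130 to 196 CPM (median 185) with FGF1 and 84.5 to 137 CPM (median 106) with vehicle (log2 0.78, SE 0.148, FDR 0.00108). Pfkm was 35.5 to 77.2 CPM against 83.8 to 120 CPM, with no overlap (log2 -0.72, SE 0.185, FDR 0.0205). The Pfkm call was lost without FGF1 replicate 7 or 36 or vehicle replicate 25, and with DESeq2 (FDR 0.077). Immediate early and dissociation-induced genes were higher with FGF1 in 2 of 5 tested, at sums of 1550 to 2450 CPM against 1040 to 1930 CPM. Their part was not tested. Of the calls on Day 5 in single or summed clusters, 5 had 1 of 6 batches in the other direction: Pfkm in cluster 5, Aldoc in cluster 6, Aldoc and Eno2 in the summed oligodendrocytes and Pygm in the summed tanycytes. The others had the same direction in 6 of 6 batches, which is fixed in advance where the groups do not overlap.

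The wider pathway was read from 6 further lists, whose counts stand against 12.6% of all genes called in the summed astrocytes and 5.08% in the summed tanycytes. In the summed astrocytes, 1 of 3 tested genes of the phosphofructokinase 2 and Tigar list was called: Pfkfb3, which makes the allosteric activator of phosphofructokinase, at log2 0.68 (SE 0.177, FDR 0.00996). Pdp1, which reactivates pyruvate dehydrogenase, fell by 1.24 (SE 0.267, FDR 0.0024) as 1 of 8 tested genes of the complex and its pyruvate carrier. Tkt (transketolase) fell by 0.52 (SE 0.115, FDR 0.00303) as 1 of 6 pentose phosphate genes. None of 14 tested glycogen partners, 2 transporter partners or 7 hypoxia-inducible genes was called in astrocytes. In the summed tanycytes, the hypoxia-inducible gene Ndrg1 rose (log2 0.72, SE 0.128, FDR 0.00165) and Hif1a, the hypoxia-inducible factor subunit itself, fell by 0.47 (SE 0.134, FDR 0.0424), 2 of 7 tested. Cluster 0 gave Ndrg1 (0.57, FDR 0.0261) and Vegfa (-0.89, FDR 0.0135) in opposite directions among 7 tested. There, 5.27% of all genes were called. Cluster 10 gave Ndrg1 (1.17, FDR 0.013) as 1 of 2 tested, where 46 of 2159 genes were called. Single calls were Car9, a carbonic anhydrase, in cluster 6 (-0.64, FDR 0.0384) and Taldo1 (transaldolase) in cluster 9 (0.70, FDR 0.0322). Car9 was 1 of 6 hypoxia-inducible genes tested, where 86 of 6734 genes were called. Taldo1 was 1 of 4 pentose phosphate genes tested, where 52 of 4171 genes were called.

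In Day 1 nuclei, 18 cell types were tested, and 6 of 211 member tests were called (2.84%), against 1.05% of all gene tests. All 6 were in Tany, Epend and Astro nuclei. Hk2, Slc16a3 and Pdk4 were too low to be tested in any type. Nuclear libraries were counted with introns, so that long genes gain counts, and levels are compared within a gene only.

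In Tany nuclei (187 FGF1 and 87 vehicle nuclei), 2 of 15 members were called, against 9.14% of all genes. Pygb was 110, 109 and 100 CPM in FGF1 replicates 1 to 3 and 416, 477 and 305 CPM in vehicle replicates 1 to 3. All FGF1 mice lay far below all vehicle mice, and Pygb fell by 1.90 on the log2 scale (SE 0.363, FDR 0.00633). Eno1 was 820, 520 and 452 CPM with FGF1 and 172, 318 and 144 CPM with vehicle, also without overlap. It rose by log2 1.49 (SE 0.416, FDR 0.0422). The batch block put Pygb at log2 -1.83 (FDR 0.0537) and Eno1 at log2 1.51 (FDR 0.171). Without vehicle replicate 1 neither was called (FDR 0.0534 and 0.253). The Eno1 call was also lost without FGF1 replicate 1 or 2 or vehicle replicate 3. Ldha (452 ± 311 against 151 ± 55.3 CPM, FDR 0.0524) and Aldoc (561 ± 392 against 1960 ± 1170 CPM, FDR 0.062) separated the groups and missed the threshold.

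In Epend nuclei (59 FGF1 and 47 vehicle), 3 of 8 members were called, against 19.0% of all genes. They were Pygb and Eno1, also called in Tany, and Aldoc. Aldoc was 477, 332 and 171 CPM with FGF1 and 712, 1060 and 974 CPM with vehicle (log2 -1.45, SE 0.355, FDR 0.00773). Pygb was 89.4, 214 and 137 CPM with FGF1 and 593, 373 and 515 CPM with vehicle (log2 -1.69, SE 0.428, FDR 0.00969). Eno1 was 596, 546 and 615 CPM with FGF1 and 237, 31.1 and 344 CPM with vehicle (log2 1.48, SE 0.46, FDR 0.0323). None of the 3 overlapped between groups. The counts behind these values were small, at 16 to 61 UMIs per gene in the FGF1 group and 21 to 92 in the vehicle group. The Eno1 call was lost with DESeq2 (FDR 0.106), on nuclei within the study's limits for mitochondrial and ribosomal UMIs (FDR 0.0769) and without FGF1 replicate 1 or 3 or vehicle replicate 1 or 2 (FDR 0.0562 to 0.106), with log2 0.96 without vehicle replicate 2. The Pygb call was lost without FGF1 replicate 1 (FDR 0.0703) or vehicle replicate 1 (FDR 0.0677). When either of these mice was left out, 1 of the 3 (Aldoc) was called. The ependymal markers summed to 1610 to 2730 CPM with FGF1 and 5150 to 6710 CPM with vehicle (4 of 5 lower), and those of astrocytes to 718 to 1550 CPM against 2020 to 2490 CPM (1 of 3 tested lower). In Tany nuclei, ependymal markers were 83.7 to 144 CPM against 407 to 693 CPM (1 of 2 tested lower). Immediate early and dissociation-induced genes were 335 to 910 CPM against 27.1 to 53.8 CPM there (2 of 2 higher). The part of these markers and genes in the 5 calls was not tested. Fewer cells of a subtype and less RNA per cell cannot be told apart in these sums.

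In Astro nuclei (553 FGF1 and 250 vehicle), 1 of 25 members was called, against 1.55% of all genes. This was Slc16a1, at 156, 154 and 140 CPM in FGF1 mice and 45.8, 19.4 and 32.6 CPM in vehicle mice. The FGF1 mice lay close together and above all vehicle mice, and the fold was 4.84 (log2 2.28, SE 0.453, FDR 0.0306). The call was lost with the batch block (log2 2.26, FDR 0.183) and when any 1 of 5 of the 6 mice was left out (FDR 0.0607 to 0.127), while log2 stayed between 1.97 and 2.64. Slc2a1 (155 ± 30.3 against 48.7 ± 17.7 CPM, FDR 0.111), Pfkp, the platelet type of phosphofructokinase (221 ± 12.2 against 81.0 ± 16.5 CPM, FDR 0.145), and Pygb (109 ± 14.1 against 230 ± 45.9 CPM, FDR 0.368) also separated the groups. Immediate early and dissociation-induced genes were higher in 3 of 3 tested (267 to 894 CPM against 25.4 to 52.2 CPM). Neuron markers summed to 822 to 1340 CPM against 1360 to 2180 CPM, with 0 of 5 called. The part of both was not tested. Gapdh, which fell in the summed astrocytes on Day 5, did not pass the filter in Tany, Epend or Astro nuclei. Among the other pathway genes, Ndrg1 rose in Tany (log2 2.85, SE 0.534, FDR 0.00546), and Phkg1, the catalytic subunit of phosphorylase kinase, fell in Epend (log2 -2.08, SE 0.407, FDR 0.00165).

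**Figure D5:**
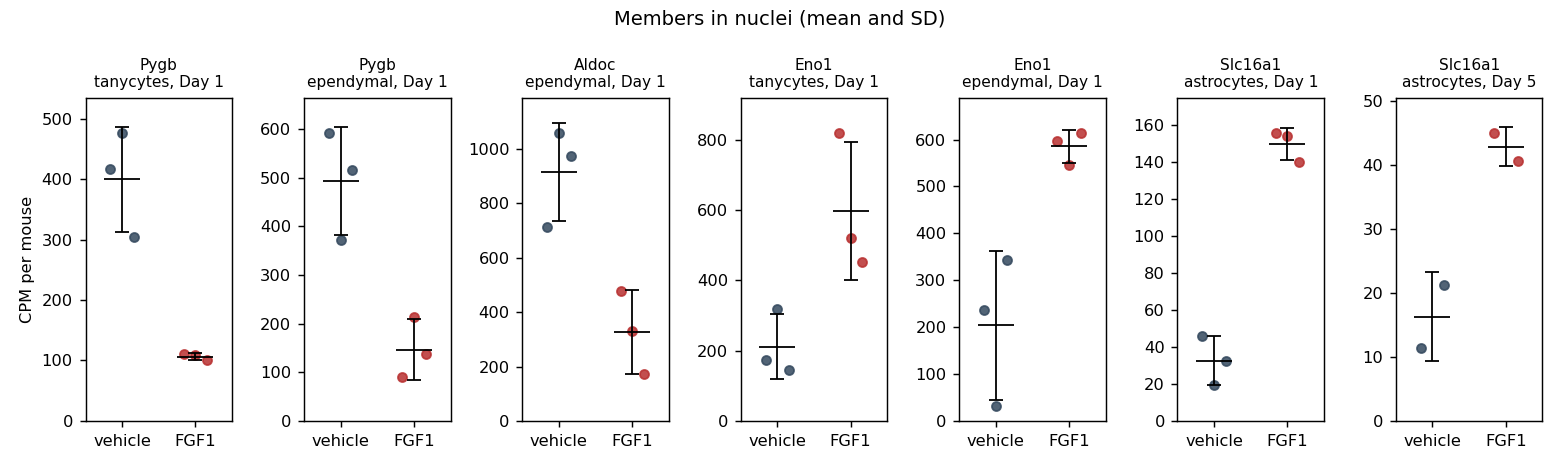
Level in CPM per mouse of the 6 pairs of member and cell type called on Day 1 (Pygb and Eno1 in Tany, Pygb, Aldoc and Eno1 in Epend, Slc16a1 in Astro; 3 mice per group), and of Slc16a1 in Astro on Day 5 (2 mice per group). In each panel the FGF1 and vehicle mice do not overlap, which can arise by chance with so few mice.

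In Day 5 nuclei, with 2 mice per group, edgeR called 0 of 189 member tests over 11 types, against 0.288% of all gene tests, and 14 had an unadjusted p below 0.05. Slc16a1 in Astro nuclei was 45.1 and 40.7 CPM in FGF1 mice and 11.4 and 21.2 CPM in vehicle mice (log2 1.63, SE 0.522, FDR 0.17). The groups did not overlap, as on Day 1, which can arise by chance with so few mice. In whole cells from other mice on Day 5, the groups did not overlap in the summed clusters 1 and 4. Within each of these clusters they overlapped. Pygb was 253 and 330 CPM against 226 and 234 CPM (log2 0.34, SE 0.374, FDR 0.745), Ppp1r3c 102 and 103 CPM against 49.4 and 58.6 CPM (FDR 0.322) and Eno2 24.6 and 32.6 CPM against 49.4 and 104 CPM (FDR 0.0756). Tany and Epend nuclei were too few on Day 5 for a comparison.

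Whether the FGF1 effect differed between the days was tested in the 11 types present on both, and 0 of 208 member tests were called by edgeR, against 0.00784% of all gene tests, with 7 at an unadjusted p below 0.05. For Slc16a1 in Astro nuclei the log2 on Day 5 minus that on Day 1 was -0.71 (SE 0.713, 95% interval -2.1 to 0.69). For Pygb in Astro nuclei it was 1.43 (SE 0.572, interval 0.31 to 2.55, FDR 0.569), and for Pfkp it was -1.61 (SE 0.619, interval -2.82 to -0.40, FDR 0.558).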

How the data were processed

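Hypothalamic nuclei (Day 1 and Day 5) and whole cells (Day 5) were profiled with droplet 3′ libraries, 1 library per mouse. The authors aligned the reads to GRCm38 with Cell Ranger 1.2 (per the submitters' processing notes), counting introns for nuclei, and deposited raw UMI counts per gene and barcode with metadata. For whole cells, neurons and Scrublet doublets were removed before deposit. For nuclei no doublet caller was run, and none was run here. The percent of mitochondrial and ribosomal UMIs was taken as deposited for whole cells and computed here from the counts for nuclei. It served only for 1 alternative fit on the 24011 nuclei and 50508 cells inside the study's stated limits. The deposited log-normalized values were not used.

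Samples were grouped by their labels. Per mouse, counts were added up over each cell type or cluster, with at least 10 barcodes per mouse and 2 mice per group. After filterByExpr and TMM scaling, edgeR 4.0.16 in R 4.3.3 (robust glmQLFit, glmQLFTest, no covariate) compared FGF1 with vehicle in each type. Differences between days, clusters or classes were interaction terms, the last with the mouse as a block. The scripts were tested on simulated data. Replicates differed by more than sampling noise. Intervals cover the spread between mice. They are normal approximations from an SE derived from the test statistic, so with few mice they can be too narrow. Alternatives were DESeq2 1.42.0, its size factor scaling, no filter, stated limits, batch or replicate number as a block and leaving out each mouse.

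A cluster was named where at least 3 markers of a class were in 5% or more of its cells at 2-fold or more the level elsewhere. That share, the summed clusters and the batch block on Day 1 were chosen after seeing the data. The members and lists were chosen with earlier results of these data known. Values per mouse are given for called members, up to 4 per comparison with the lowest FDR, and for the lowest FDR in clusters 0, 1 and 2 and in Tany, Epend and Astro. Other called or separating members are given by mean or range. Members outside that rule that are given with values were chosen after their values were seen.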

Additional observations from a re-analysis of the deposited data

Results flagged for a closer look

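In the summed astrocyte-like and tanycyte-like clusters on Day 5, the FGF1 effect differed between the summed classes by the interaction test for 13 of 32 members. That is 40.6%, against 14.1% of all genes. Members and summed classes were chosen with results of these data known. The astrocyte minus tanycyte log2 was 0.66 for Pfkm, 0.63 for Pygb, 0.62 for Ugp2, 0.61 for Slc16a1 and 0.49 for Ppp1r3c. It was -0.72 for Eno1, -0.58 for Gpi1, -0.57 for Gapdh, -0.55 for Aldoa, -0.51 for Ldha, -0.45 for Tpi1, -0.41 for Ldhb and -0.38 for Pgam1. Both classes came from the same 12 mice. With 1 mouse left out, the calls of Pgam1, Ppp1r3c, Ldhb and Slc16a1 were each lost in at least 1 fit (FDR 0.0508 to 0.106). Cluster 4 held a median of 79.4% of the summed astrocytes in FGF1 mice and 6.60% in vehicle mice. In FGF1 mice, clusters 0, 7 and 10 held medians of 62.1%, 22.7% and 7.34% of the summed tanycytes. In vehicle mice they held 80.7%, 10.7% and 11.0%. The part of these shifts in the differences was not tested. Between cluster 1 and cluster 0 alone, the difference was called for 3 of 31 members, against 2.41% of all genes: Pgam1 (-0.64), Ldha (-0.58) and Gapdh (-0.44). The last 2 calls were lost with DESeq2's size factor scaling (FDR 0.0574 and 0.14) and when any 1 of 6 and of 7 of the 12 mice was left out. None of the other members called between the classes was called between these clusters. Their difference was 0.51 for Slc16a1, 0.4 for Pfkm, 0.35 for Ugp2, 0.33 for Ppp1r3c and 0.09 for Pygb. It was -0.13 for Ldhb, -0.19 for Eno1, -0.34 for Aldoa, -0.37 for Gpi1 and -0.44 for Tpi1.

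Single mice stood apart from the others of their group in 4 of 52 groups checked by Dixon's criterion, which flags about 1 in 20 groups by chance. Vehicle replicate 35 had the highest Gapdh, at 1550 CPM in cluster 1 and 1500 CPM in the summed astrocytes. FGF1 replicate 7 had the lowest Gapdh in cluster 2, at 417 CPM, and FGF1 replicate 28 the lowest Ldha in the summed OPC, at 130 CPM. Gapdh in the summed astrocytes and Ldha in the summed OPC kept their calls whichever of the 12 mice was left out.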

How the results depend on the processing

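Comparisons of FGF1 with vehicle were refitted with DESeq2, its size factor scaling, no low-count filter, barcodes within stated limits, a batch block and each mouse left out. DESeq2 and the batch block were not run for the differences between days, clusters and classes, and DESeq2 gave no adjusted p for Pygm in the summed oligodendrocytes. The 46 called and 2 further member values reversed in none of 753 refits, kept their side of the threshold in 614, lost the call in 135 and gained it in 4. Over single clusters on Day 5 (5 calls), the count was 12 with no filter, 9 with DESeq2, 9 with the batch block and 21 with clusters of one name summed, and 1 (without vehicle replicate 20 or 25) to 12 (without vehicle replicate 35) with a mouse left out. For cluster 0 (1 call) it was 0 with size factor scaling, 2 with no filter, 2 with DESeq2, 3 within limits and 0 to 3 with a mouse left out. For cluster 2 (0 calls) it was 2 with no filter, 1 with DESeq2 and 0 to 2 with a mouse left out, and for cluster 1 it was 0 throughout. For Day 1 nuclei (6 calls) it was 11 with no filter and 3 with the batch block, chosen after seeing the data, and 2 (without vehicle replicate 1) to 7 with a mouse left out. In Tany (2 calls) it was 7 with no filter, 0 with the batch block and 0 to 4 with a mouse left out, and in Epend (3 calls) 1 to 3. In Astro (1 call) it was 3 within limits, 0 with the batch block and 0 to 1 with a mouse left out. In Day 5 nuclei (0 calls) it was 2 with no filter, 1 with the batch block and 0 to 6 (without vehicle replicate 38) with a mouse left out, where 1 arm had 1 mouse, assumed to vary like the other group. The day difference stayed at 0. For the difference between clusters 0 and 1 (3 calls) it was 1 with size factor scaling and 1 to 4 with a mouse left out (1 without FGF1 replicate 21 or vehicle replicate 20 or 29). With a mouse left out, the summed classes ranged from 8 to 11 in astrocytes, 0 to 4 in tanycytes, 1 to 8 in oligodendrocytes and 1 to 2 in OPC (1 with DESeq2), and the class difference from 11 to 14. The cause of these shifts was not tested.

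Day 1 replicate numbers are shared between groups. Same-numbered Astro mice deviated from their group means with correlations of -0.116, -0.464 and 0.467, which cannot decide on pairing with 3 mice per group. The deposited batch numbers joined FGF1 replicates 1, 2 and 3 with vehicle replicates 3, 1 and 2. The main fit took no pairs. The fit with a replicate block gave 5 calls over all types, 1 in Tany, 3 in Epend and 1 in Astro. The stated limits could not be fitted in 1 of 18 Day 1 types and the batch block in 2. Sums of few nuclei were a limit on Day 1: in Epend, 8 of the 33 members passed the filter.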

Other observations

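Cluster 9 carried all 5 markers of committed oligodendrocyte precursors, and no member was called there. It held 1583 FGF1 cells and 164 vehicle cells, with only 16 to 51 cells per vehicle mouse. In this cluster, Eno1 was 352 CPM with FGF1 and 211 CPM with vehicle without overlap (log2 0.65, SE 0.21, FDR 0.132). Ldha was 110 against 53.7 CPM (log2 1.06, SE 0.342, FDR 0.132). In oligodendrocyte-like cluster 12, Aldoc was 399 ± 141 CPM in 4 FGF1 mice and 702 ± 107 CPM in 6 vehicle mice (log2 -0.85, SE 0.196, FDR 0.0561).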
